A study of Mus musculus with 9 samples.

Results

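The SLC4 genes encode membrane proteins that carry bicarbonate into or out of cells and so set intracellular pH. The 9 members described here (Slc4a1, Slc4a2, Slc4a3, Slc4a4, Slc4a5, Slc4a7, Slc4a8, Slc4a10 and Slc4a11) were taken by family name and had 15 probes among the 30170 probes of the deposited expression table, which covered 21679 genes. The set was picked because Slc4a5 rose strongly in RING1B knockout cells from a level already measurable in wild type. The level of Slc4a5 in knockout cells is therefore given as a description with no test. The other 8 members were open to test. Slc4a5 in the point mutant was compared with the same wild-type arrays that helped to pick it, so its p-values are not free of that choice.

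SLC4 carriers fall into classes by what they move. Chloride/bicarbonate exchangers let bicarbonate out in return for chloride, sodium-bicarbonate cotransporters couple bicarbonate entry to sodium, and sodium-driven exchangers do so while expelling chloride. The cotransporter made from Slc4a5 (NBCe2) is electrogenic and is best known from the choroid plexus, where it helps to secrete cerebrospinal fluid.

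The cells were mESCs (mouse embryonic stem cells) of the male line E14Tg2a, strain 129P2/OlaHsd, grown in GMEM with serum and LIF and without further treatment. Wild-type cells (WT), Ring1B -/- cells (KO) and Ring1B I53A/I53A cells (I53A) gave 3 arrays each. RING1B, encoded by Rnf2, is a catalytic subunit of Polycomb repressive complex 1, which ubiquitinates histone H2A. The KO allele lacks exon 3 of Rnf2, and the I53A allele exchanges isoleucine for alanine so that the protein is made but cannot work with its E2 enzyme. Both mutants were derived from E14Tg2a cells by repeated gene targeting, drug selection and Cre, and neither was tested here in a second independent line. The study's methods call the 3 replicates of each group biological, while the labels do not state what separates them, such as lines or cultures. The p-values measure only how far these samples lie apart.

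RNA was labelled with Cy3 and hybridised to 1-colour Agilent arrays, and every level below is a quantile-normalised log2 intensity of 1 probe, so that levels of different probes cannot be ranked against each other. Between 45.4% and 57.5% of the table's probes were well above background on an array, by the scanner software's own call, and 5 to 9 spots per array were saturated. Hereafter a reading is termed above background where it has that call, and at or below background where it lacks it. Lacking the call does not place a reading under the background level. No SLC4 probe was saturated on any array. In each group the arrays lay on 2 slides, and each group occupied a slide column of its own, so column and genotype cannot be told apart. All 9 measured markers of mouse ES cells were above background in every group, with a summed log2 level of 15.1 to 15.6 in WT, 15.7 to 15.8 in KO and 15.0 to 15.6 in I53A. The single Rnf2 probe read 8.32, 8.27 and 8.47 in WT, 7.35, 7.92 and 8.08 in KO and 8.69, 9.10 and 8.59 in I53A. Its KO difference was not called (log2 fold change -0.57, SE 0.26, limma adjusted p = 0.288), and whether the probe lies in the deleted exon was not examined, so it does not check the genotype.

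Slc4a5 (chromosome 6, 83207580 to 83304945, GRCm38.p6) had 2 probes of 60 bases. They are shown because the main finding rests on both, and they read different stretches of the message: their longest common run was 5 bases. The deposited annotation assigned 2 Ensembl transcripts to each, of which 1 was shared.
Slc4a5 probe A_51_P403814: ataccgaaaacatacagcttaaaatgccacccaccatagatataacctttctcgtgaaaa
Slc4a5 probe A_55_P2032548: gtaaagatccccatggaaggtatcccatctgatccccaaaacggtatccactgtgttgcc
No run longer than 8 bases was shared between a Slc4a5 probe and a probe of another member.

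The promoter of Slc4a5 is shown as an annotated start region of the member whose level separated the groups. That of Slc4a4, the other electrogenic cotransporter, is shown for contrast. The Slc4a5 window lies inside the gene span given above, and no window at the first base of that span was read. Both sequences are from RefSeq (GRCm38.p6) and run from 250 bases before to 50 bases after an annotated start, with CG dinucleotides in capitals.
Slc4a5, chr6:83237125-83237424, plus strand: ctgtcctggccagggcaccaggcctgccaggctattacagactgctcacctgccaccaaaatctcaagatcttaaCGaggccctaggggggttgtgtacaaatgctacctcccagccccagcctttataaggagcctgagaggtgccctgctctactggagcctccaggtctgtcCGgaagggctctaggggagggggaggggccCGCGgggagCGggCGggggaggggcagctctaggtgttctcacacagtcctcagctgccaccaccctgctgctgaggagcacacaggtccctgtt
Slc4a4, chr5:88887010-88887309, plus strand: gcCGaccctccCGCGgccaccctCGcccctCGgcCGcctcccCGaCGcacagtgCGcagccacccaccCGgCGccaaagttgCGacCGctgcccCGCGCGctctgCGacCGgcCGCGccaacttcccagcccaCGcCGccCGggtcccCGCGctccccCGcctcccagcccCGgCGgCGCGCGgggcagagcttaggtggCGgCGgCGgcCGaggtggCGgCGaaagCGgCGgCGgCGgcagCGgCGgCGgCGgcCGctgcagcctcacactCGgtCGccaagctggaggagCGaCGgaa
The Slc4a5 window held 6 CG dinucleotides, close to the median of 7 over 32841 RefSeq promoters of the same length, and 56.4% of these held as many or more. The printed Slc4a4 window held 50, reached by 0.856% of promoters, but a second annotated Slc4a4 start (chromosome 5, window 89027716 to 89028015) held 3, fewer than Slc4a5, so the contrast depends on the start chosen. RefSeq gave windows for 7 of the 9 members, 10 in all. Their counts ran from 2, in Slc4a7 and the second start of Slc4a10, through 21 in Slc4a8 28 in Slc4a3 and 37 at the first start of Slc4a2, to the 50 of Slc4a4. The motif TATAA, searched on both strands, lay in the Slc4a5 window once on each strand in overlapping positions, and 24.9% of all promoters held it. The motif GGGCGG occurred once, as in 35.7% of promoters, and CACGTG did not occur, which 7.15% of promoters held. These are matches of letters and not sites of any factor.

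Slc4a5 was lowest in WT, intermediate in I53A and highest in KO, at both probes and with no overlap between any of the groups. At the brighter probe, A_51_P403814, WT arrays read 6.44, 6.61 and 7.14, I53A arrays 8.97, 9.04 and 9.67, and KO arrays 12.01, 11.83 and 11.88. The highest WT array thus lay 1.82 log2 units below the lowest I53A array, and the highest I53A array 2.16 below the lowest KO array. The group means were 6.73 ± 0.37, 9.22 ± 0.38 and 11.90 ± 0.09 (SD, n = 3 each). In KO the spread between arrays was the smallest of the 3 groups. Because these are whole-culture RNA samples, a rise in a few cells and a rise in every cell cannot be told apart.

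The second probe, A_55_P2032548, gave the same order. WT arrays read 5.66, 5.57 and 4.70, of which 2 were well above background, I53A arrays 8.24, 8.47 and 8.19, and KO arrays 9.99, 10.92 and 10.997. The third WT array was the lowest, and 1 KO array stood about 1 log2 unit under the other KO arrays, yet it remained 1.52 above the highest I53A array. The means were 5.31 ± 0.53, 8.30 ± 0.15 and 10.64 ± 0.56 (SD, n = 3 each). Relative to WT, KO was higher by 5.17 (SE 0.27) on the log2 scale at the first probe and by 5.32 (SE 0.34) at the second, which correspond to 36.1-fold and 40.1-fold.

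The question for the point mutant was whether a RING1B protein that is present but lacks its E2 partner leaves Slc4a5 at the wild-type level. It did not: I53A exceeded WT by 2.49 on the log2 scale at the first probe (SE 0.27, 95% interval 1.89 to 3.10, 5.64-fold, limma adjusted p = 0.00607 over all 30170 probes) and by 2.99 at the second (SE 0.34, 95% interval 2.23 to 3.74, 7.93-fold, limma adjusted p = 0.00748). The comparison uses the same WT arrays as the KO comparison that picked the gene, so the 2 are not independent. WT arrays that read low by accident would enlarge both differences, and the p-values given here do not allow for that choice. An exact two-sided permutation test on the 6 arrays gave p = 0.1 for either probe, the smallest value that 3 against 3 allows. On the first slide alone, with 2 arrays per group, the difference was 2.48 but no longer passed (limma adjusted p = 0.142).

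**Figure D1:**
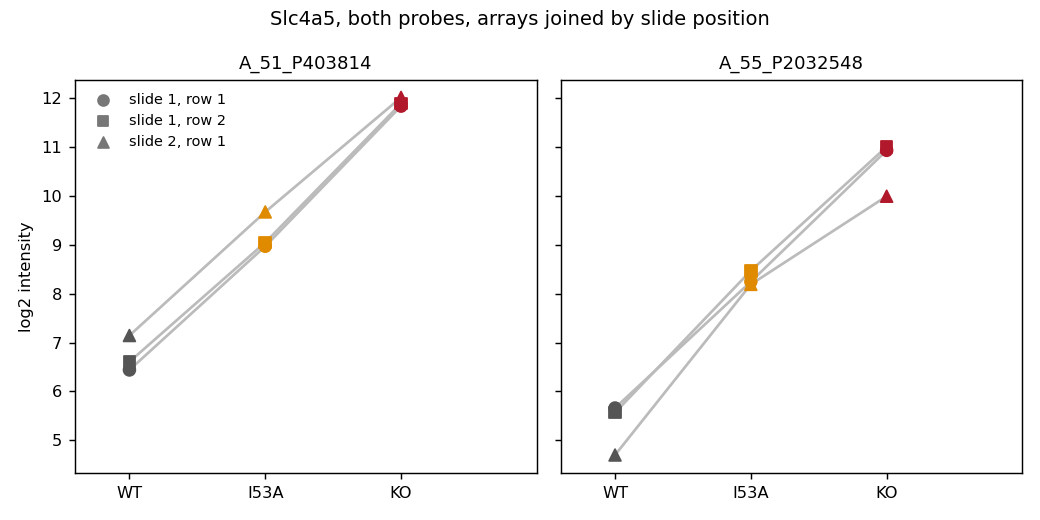
Quantile-normalised log2 intensity (y axis) of the 2 Slc4a5 probes in WT, I53A and KO mESCs (x axis), 1 point per array, with grey lines joining arrays at the same slide and row. Every line climbs from WT through I53A to KO, from between 4.70 and 7.14 to between 9.99 and 12.01.

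Arrays of the 3 groups at the same slide and row could also be set against each other. At the first probe, the KO array exceeded the WT array by 5.39, 5.27 and 4.86 log2 units at the 3 positions, and the I53A array exceeded it by 2.53, 2.44 and 2.52. The I53A rise thus amounted to 46.9%, 46.2% and 51.9% of the KO rise on the log2 scale. At the second probe, the KO differences were 5.26, 5.43 and 5.29 and the I53A differences 2.58, 2.90 and 3.48. The I53A share was accordingly 49.0%, 53.4% and 65.9%. KO exceeded I53A by 2.68 (SE 0.27, 6.41-fold) at the first probe and by 2.34 (SE 0.34, 5.05-fold) at the second, again as a description because it rests on the KO arrays.

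A gene was called where its brightest probe had an adjusted p under 0.05 and a change above 2-fold. Of the other 8 members, 0 were called in KO against WT, beside 2.93% of all 21679 genes called higher and 1.17% lower, and 1 (Slc4a4) had an unadjusted p under 0.05 in the limma fit, in the higher direction. In I53A against WT, 0 of the other 8 were called, beside 0.291% of all genes called higher and 0.111% lower. An unadjusted p under 0.05 in limma was reached by 3 of them, all higher. Slc4a5 was called there, but it was picked against the same WT arrays and is not set beside these shares. In KO against I53A, 0 of the other 8 were called in limma, beside 1.06% of genes called higher and 0.406% lower, and 2 had an unadjusted p under 0.05, both lower in KO. The median log2 fold change over the 8 other members was 0.27 in KO and 0.24 in I53A relative to WT, beside -0.02 and -0.01 over all genes.

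**Figure D2:**
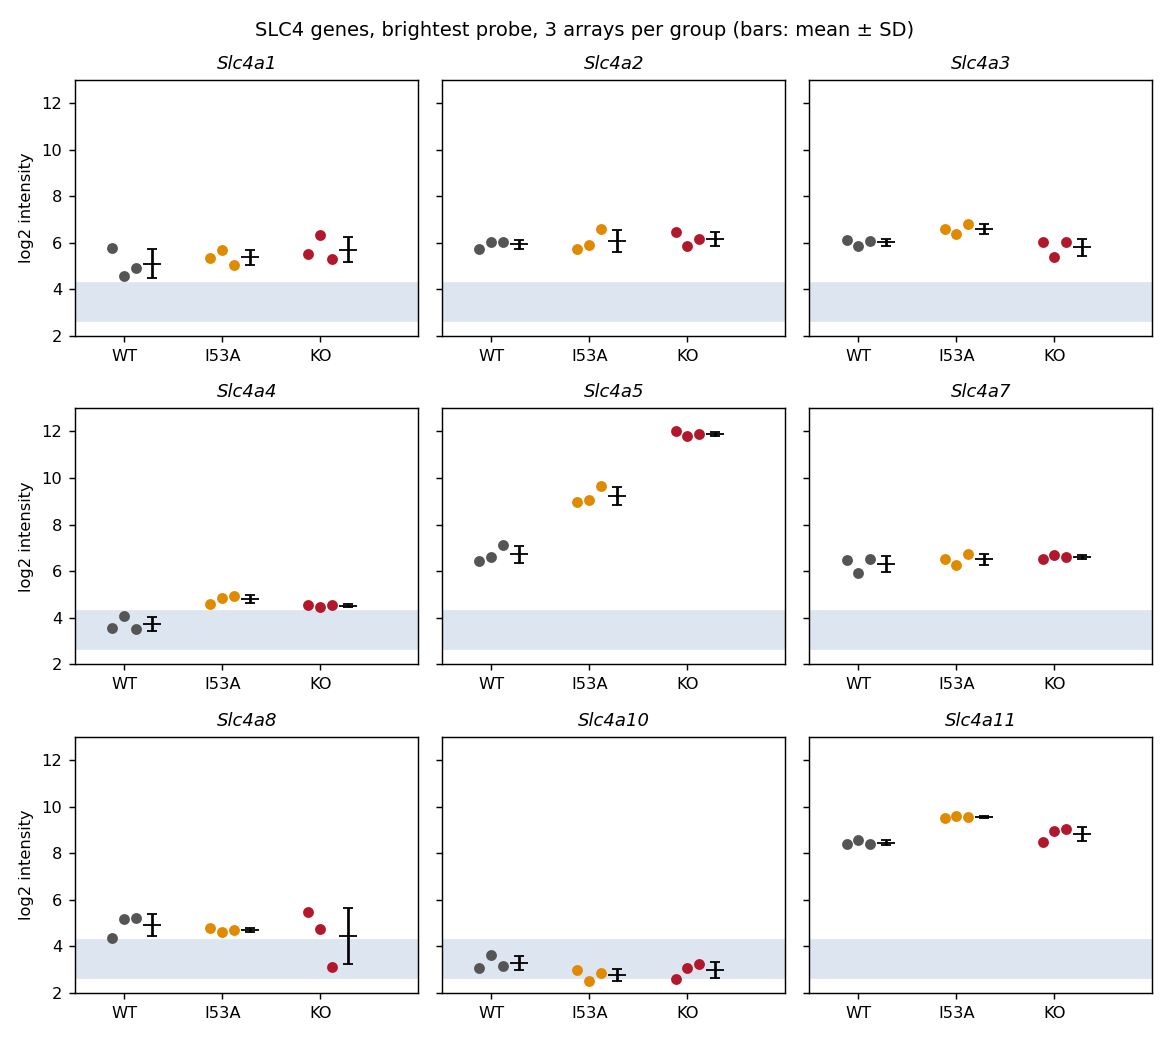
Quantile-normalised log2 intensity (y axis) of the brightest probe of each SLC4 gene in WT, I53A and KO (x axis), 3 arrays per group with mean ± SD beside them. The pale band spans, over the 9 arrays, the lowest intensity of any probe called well above background, and a point over the band need not itself have that call. Slc4a5 separates the 3 groups, Slc4a11 is highest in I53A (9.51 to 9.57), and Slc4a10 stays at or below 3.64 everywhere.

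The anion exchangers, which extrude bicarbonate, showed no called difference. Slc4a2 (chromosome 5, 24423761 to 24440947), the exchanger found in most tissues, was above background on all 9 arrays. It read 5.72, 6.05 and 6.02 in WT, 6.44, 5.88 and 6.18 in KO, and 5.74, 5.89 and 6.59 in I53A. All 3 groups overlapped. The log2 differences from WT were 0.24 in KO (95% interval -0.38 to 0.85, limma adjusted p = 0.725) and 0.14 in I53A (-0.47 to 0.76, limma adjusted p = 0.925), intervals that exclude a 2-fold change.

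Slc4a3 (chromosome 1, 75546044 to 75559431), an exchanger of brain and heart, had 3 probes. At the brightest, A_55_P2148431, WT arrays read 6.12, 5.87 and 6.06, KO arrays 6.02, 5.37 and 6.01, and I53A arrays 6.57, 6.39 and 6.79. The I53A arrays lay above those of both other groups. The difference from WT was 0.57 (SE 0.25, limma adjusted p = 0.526) and was not called. The second probe, A_55_P2112991, differed from WT by 0.79 in I53A (limma adjusted p = 0.572), with I53A arrays above all WT arrays by only 0.02. The third, A_51_P321743, differed by 0.04 (limma adjusted p = 0.981), so the 3 probes gave 3 different sizes. In KO the 3 probes differed from WT by -0.22, 0.16 and 0.11, with adjusted p from 0.715 to 0.894 in limma.

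Slc4a1 (chromosome 11, 102348820 to 102365281), the band 3 protein of red cells, was near background, with 1 WT array, 2 KO arrays and 2 I53A arrays above it. Arrays read 5.80, 4.59 and 4.94 in WT, 5.52, 6.32 and 5.29 in KO, and 5.37, 5.71 and 5.03 in I53A. The groups overlapped, with log2 differences of 0.60 in KO (limma adjusted p = 0.455) and 0.26 in I53A (limma adjusted p = 0.886).

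Among the other sodium-bicarbonate cotransporters, Slc4a4 (chromosome 5, 88793858 to 89239656), which encodes NBCe1 of kidney and pancreas, was at background in WT and slightly brighter in both mutants. Its 3 probes were not independent, since A_55_P1959228 and A_55_P1967776 share the 48 bases shown in capitals, and the pair is printed for that reason.
Slc4a4 probe A_55_P1959228: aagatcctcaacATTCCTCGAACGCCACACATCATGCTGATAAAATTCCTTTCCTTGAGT
Slc4a4 probe A_55_P1967776: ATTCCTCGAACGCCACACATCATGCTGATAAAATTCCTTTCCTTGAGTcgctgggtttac
At A_55_P1959228, WT arrays read 3.58, 4.08 and 3.54, none of them above background. KO arrays read 4.56, 4.47 and 4.55, with 1 above background, and I53A arrays 4.60, 4.85 and 4.94, with 2 above. Both mutants lay wholly above WT. The log2 difference was 0.79 in KO (SE 0.23, limma adjusted p = 0.0884) and 1.07 in I53A (SE 0.23, limma adjusted p = 0.106), and neither was called. With WT readings under an array's lowest level called well above background raised to that level, I53A was 1.87-fold and KO 1.55-fold higher. That level is no detection limit, so these folds are not lower bounds. Over the alternative settings the log2 difference ran from 0.16 to 1.24 in I53A and from 0.15 to 0.97 in KO. The overlapping probe differed by 1.11 in KO (limma adjusted p = 0.0787) and 1.55 in I53A (limma adjusted p = 0.0856). The third probe, A_52_P457567, was below background on all 9 arrays and differed by -0.32 in KO and -0.52 in I53A, both uncalled.

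Slc4a7 (chromosome 14, 14703011 to 14799944), which encodes the electroneutral cotransporter NBCn1, was above background on all 9 arrays at both of its probes. At A_52_P108502 arrays read 6.46, 5.91 and 6.53 in WT, 6.52, 6.69 and 6.59 in KO, and 6.52, 6.28 and 6.76 in I53A. The groups overlapped, with log2 differences of 0.30 in KO (95% interval -0.24 to 0.84, limma adjusted p = 0.588) and 0.22 in I53A (-0.32 to 0.76, limma adjusted p = 0.838). The other probe gave -0.07 and 0.19. A 2-fold change lay outside all 4 intervals.

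The sodium-driven exchangers, known from neurons, were barely measured. Slc4a8 (chromosome 15, 100761747 to 100823971) was above background on 0 WT arrays, 1 KO array and 1 I53A array. It read 4.37, 5.17 and 5.21 in WT, 5.46, 4.74 and 3.10 in KO, and 4.77, 4.60 and 4.70 in I53A. The KO arrays spanned a wider range than either other group and overlapped both. Slc4a10 (chromosome 2, 62046472 to 62326743) was below background on all 9 arrays, with readings from 2.50 to 3.64, so no fold is given.

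Slc4a11 (chromosome 2, 130684107 to 130697519) encodes a divergent family member of the corneal endothelium that moves protons or hydroxide rather than bicarbonate. WT arrays read 8.40, 8.57 and 8.38, KO arrays 8.50, 8.95 and 9.04, and I53A arrays 9.51, 9.57 and 9.57. The I53A arrays stood 0.94 log2 units clear of WT and 0.46 clear of KO, while KO overlapped WT. I53A exceeded WT by 1.098 (SE 0.22, 95% interval 0.61 to 1.58, 2.14-fold), which did not pass over all probes (limma adjusted p = 0.0856). It passed when only probes above background on all arrays of at least 1 group were kept (limma adjusted p = 0.0209). KO differed from WT by 0.38 (limma adjusted p = 0.422) and from I53A by -0.72 (limma adjusted p = 0.193). The order of its means, WT, KO and then I53A, was unlike that of Slc4a5, in which KO was highest. None of the Slc4a11 differences was called over all probes, so its order is a description.

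**Figure D3:**
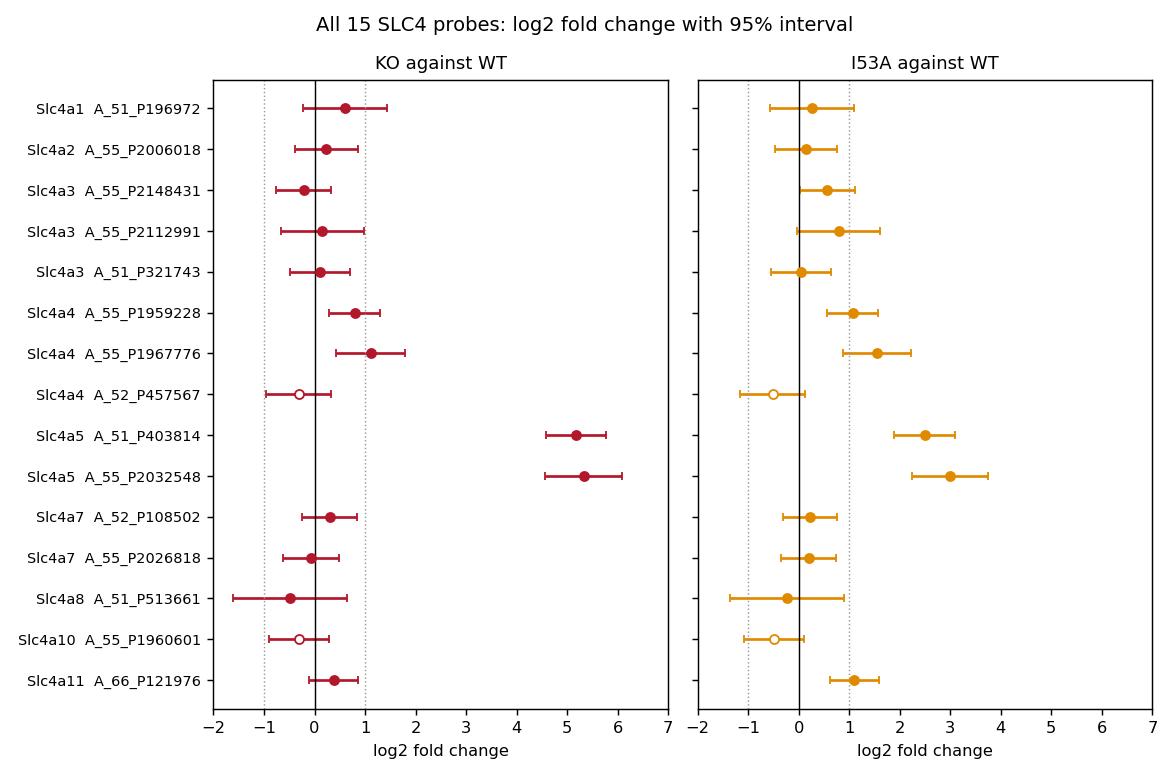
Log2 fold change with 95% interval (x axis) of each of the 15 SLC4 probes (y axis) in KO and in I53A relative to WT, over 3 arrays per group. Open circles mark probes not called well above background on any array of either group, and dotted lines 2-fold in either direction. The 2 Slc4a5 probes lie at 5.17 and 5.32 in KO and at 2.49 and 2.99 in I53A. The KO values of Slc4a5 are a description, since they picked the gene.

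Among the 8 members other than Slc4a5, KO arrays lay wholly above WT arrays for 1 (Slc4a4), where 12.1% of all genes did so, and wholly below for 0, against 13.5% of genes. In I53A, arrays lay wholly above WT for 3 of these 8 (Slc4a4, Slc4a11 and Slc4a3), against 8.7% of all genes. They lay wholly below for 1 (Slc4a10, below background), against 9.67%. Slc4a5, also wholly above WT in I53A, is left out of the count because the same WT arrays picked it. The 2 mutants share their WT arrays, so these counts are not independent of each other. Of the 3 counted as higher in I53A, 0 were called. Between the mutants, KO arrays lay wholly above I53A arrays for 0 of the other 8 members, against 7.83% of genes, and wholly below for 3 (Slc4a3, Slc4a4 and Slc4a11), against 8.11%.

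The wider set of genes for bicarbonate and pH handling held 54 genes: carbonic anhydrases, SLC26 anion exchangers, sodium-proton exchangers and their scaffolds, monocarboxylate carriers with their chaperone, regulators of SLC4 transport and the red cell partners. Of these, 52 were measured, and 23 were above background on all arrays of at least 1 group. In KO 3 of 52 were called higher and 0 lower, beside 2.93% and 1.17% of all genes, and 6 had an unadjusted p under 0.05 in each direction. In I53A 0 were called in either direction in limma, beside 0.291% and 0.111% of all genes, with unadjusted p under 0.05 in 5 higher and 0 lower genes. The median log2 fold change was -0.05 in KO and 0.10 in I53A.

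Bsg, the chaperone (basigin) that brings lactate carriers to the membrane, rose in KO. WT arrays read 10.19, 10.44 and 10.12, KO arrays 11.96, 11.47 and 11.59, and I53A arrays 10.86, 11.55 and 11.58. Both mutants lay wholly above WT. The log2 difference was 1.42 in KO (SE 0.26, 2.68-fold, limma adjusted p = 0.0144) and 1.08 in I53A (SE 0.26, limma adjusted p = 0.166), not called. The KO call was lost without the first WT array (limma adjusted p = 0.0622) and without the third (0.0656).

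Slc9a3r1, which encodes the scaffold NHERF of sodium-proton exchangers, read 7.75, 7.26 and 7.43 in WT, 8.81, 9.07 and 8.41 in KO, and 8.04, 8.30 and 7.90 in I53A. Every KO array was above every WT and I53A array. KO exceeded WT by 1.28 (SE 0.25, 2.43-fold, limma adjusted p = 0.0193). Leaving out either of 2 KO arrays (the first or the second) or 2 WT arrays (the second or the third) ended this call, with limma adjusted p from 0.0546 to 0.0769. The I53A difference of 0.60 was not called (limma adjusted p = 0.503). The other scaffold gene, Slc9a3r2, was 0.90 higher in KO (limma adjusted p = 0.056) and not called. The third call in KO was Slc26a2, a sulphate carrier of cartilage. Its probe was not called well above background on any of the 9 arrays (means 3.18 in WT and 4.89 in KO, limma adjusted p = 0.00679), so no fold is given.

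The 14 measured carbonic anhydrase genes belong to a family whose active enzymes make bicarbonate from carbon dioxide. Of them, 0 were called against WT in either mutant, while Car2 and Car3 were called lower in KO than in I53A. At an unadjusted p under 0.05, KO had 4 below WT and 1 above. Car2, the abundant cytosolic enzyme, read 10.96, 10.33 and 10.49 in WT, 9.32, 9.92 and 8.86 in KO, and 11.46, 10.67 and 11.17 in I53A. KO was lowest without overlap, with log2 differences of -1.73 from I53A (limma adjusted p = 0.033) and -1.22 from WT (limma adjusted p = 0.0714). The difference from WT passed with slide and row as a block (limma adjusted p = 0.0192), with dim probes left out (0.0261) and without the second KO array (0.0476). Car3, its relative in muscle and fat, read 7.99, 7.81 and 7.38 in WT, 5.71, 6.70 and 6.72 in KO, and 9.11, 7.63 and 8.33 in I53A. Its log2 difference was -1.98 in KO against I53A (limma adjusted p = 0.0456) and -1.35 against WT (limma adjusted p = 0.101). Both calls were lost in 13 of the 20 alternative settings, among them 6 of 9 single arrays left out for Car2 and 8 of 9 for Car3. Among the 8 regulators of SLC4 transport (Ahcyl1, Ahcyl2, the WNK kinases, Stk39 and Oxsr1), 0 were called and 0 had an unadjusted p under 0.05 in any comparison.

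**Figure D4:**
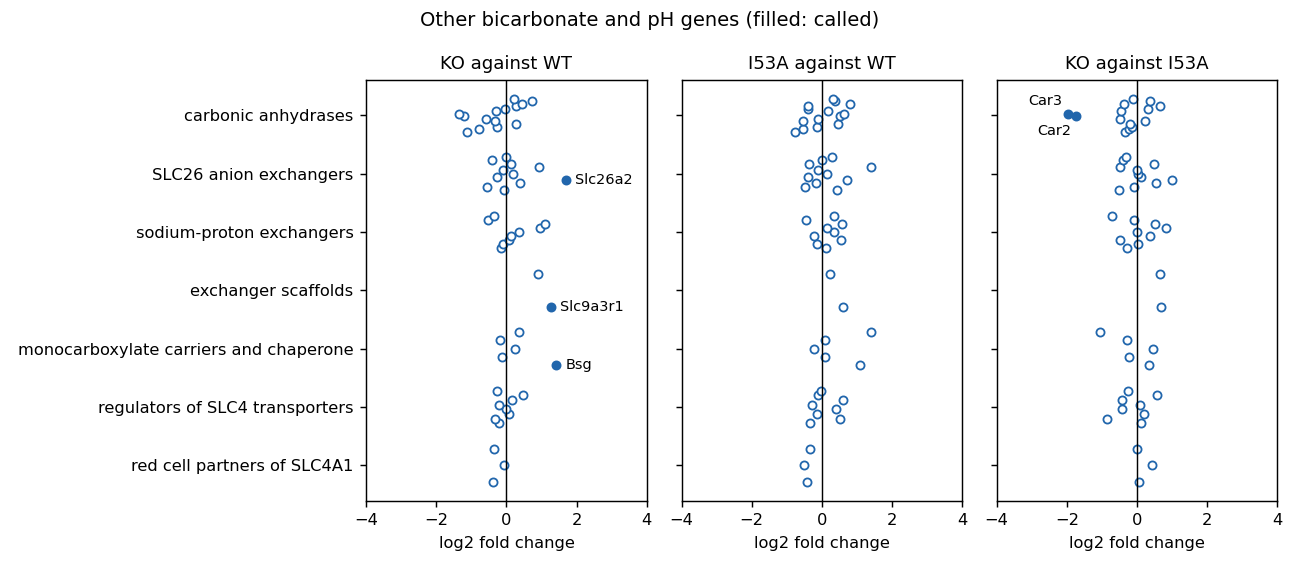
Log2 fold change (x axis) of 52 genes for bicarbonate and pH handling, grouped by role (y axis), for the 3 comparisons between KO, I53A and WT. Each circle is the brightest probe of 1 gene over 3 arrays per group, filled where called. The filled circles are Slc26a2 (1.71), Bsg (1.42) and Slc9a3r1 (1.28) in KO, and Car2 and Car3 (-1.73 and -1.98) in KO against I53A.

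Genes around Slc4a5 were examined to see whether the rise extended along the chromosome. Distances were taken from the annotated start in the promoter window printed above, which lies inside the span given for the gene. Within 500 kb of that start lay 30 measured genes. In KO 3 were called higher and 0 lower in limma, beside 2.93% and 1.17% of all genes, and an unadjusted p under 0.05 was reached by 5 higher and 4 lower genes. In I53A 0 were called higher and 1 lower in limma, beside 0.291% and 0.111% of all genes, and an unadjusted p under 0.05 was reached by 3 higher and 3 lower genes. Their median log2 fold change was -0.07 in KO and 0.06 in I53A. None of the 3 nearest genes on either side (Dctn1, Wdr54 and 1700003E16Rik before the start, Mthfd2, Mob1a and Bola3 after it) was called in KO. Their log2 differences there ran from -0.91 in Mthfd2 to 0.75 in Dctn1. Dctn1, the nearest at 51.4 kb, encodes a dynactin subunit and read 10.93, 10.50 and 10.05 in WT, 10.74, 11.69 and 11.30 in KO, and 10.83, 11.02 and 10.54 in I53A, with overlapping groups.

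Rtkn, 100.3 kb before the start, is named after its values were seen, because its I53A difference was the highest of the 30. It read 9.40, 9.40 and 9.90 in WT, 10.98, 9.91 and 11.20 in KO, and 10.87, 11.99 and 11.58 in I53A, so both mutants lay above WT, in KO by a narrow margin at 1 array. The log2 differences from WT were 1.91 in I53A (limma adjusted p = 0.0918) and 1.13 in KO (limma adjusted p = 0.153), neither called.

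The neighbours called in KO lay farther out. Tlx2, a homeobox gene 167.1 kb before the start, read 3.06, 3.68 and 3.16 in WT, all below background, and 5.11, 5.67 and 5.89 in KO, all above. Its log2 difference was 2.26 in KO (limma adjusted p = 0.00183), or 3.68-fold with low WT readings raised as for Slc4a4. M1ap, a gene of male meiosis 290.5 kb before the start, read 2.20, 2.45 and 2.05 in WT and 4.58, 4.45 and 5.25 in KO, with 2 KO arrays above background. Its log2 difference was 2.53 in KO (limma adjusted p = 0.00791), or 2.12-fold with low WT readings raised in the same way. Vax2os, a transcript antisense to Vax2 474.8 kb beyond the start, read 6.02, 5.50 and 5.06 in WT, 6.81, 6.995 and 7.20 in KO, and 4.82, 4.49 and 5.09 in I53A, a KO difference of 1.48 (limma adjusted p = 0.0183). Without any 1 of 2 WT arrays (the second or the third) or 2 KO arrays (the second or the third) the Vax2os call was lost (limma adjusted p from 0.0551 to 0.0735). With the normexp background, the KO differences of Tlx2, M1ap and Vax2os were 0.71, 0.51 and 0.84, under 2-fold. In I53A these 3 genes were not called. Tlx2 read 4.23, 4.11 and 4.66 there, not called well above background but wholly above WT and under KO (limma adjusted p = 0.234 against WT). M1ap read 2.68, 2.28 and 4.03 in I53A, also not called well above background, and overlapped WT.

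Mthfd2, the mitochondrial folate enzyme whose start lies 80.2 kb past that of Slc4a5, was lower in I53A. It read 7.12, 7.63 and 6.98 in WT, 5.91, 6.38 and 6.73 in KO, and 4.85, 5.38 and 5.72 in I53A. The groups did not overlap, and both mutants lay under WT. The I53A difference was -1.93 (SE 0.31, limma adjusted p = 0.0391), and with the replicate number as a block it did not pass (limma adjusted p = 0.0797), nor with slide and row as a block (0.0698). Of the 20 alternatives, 15 lost this call.

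**Figure D5:**
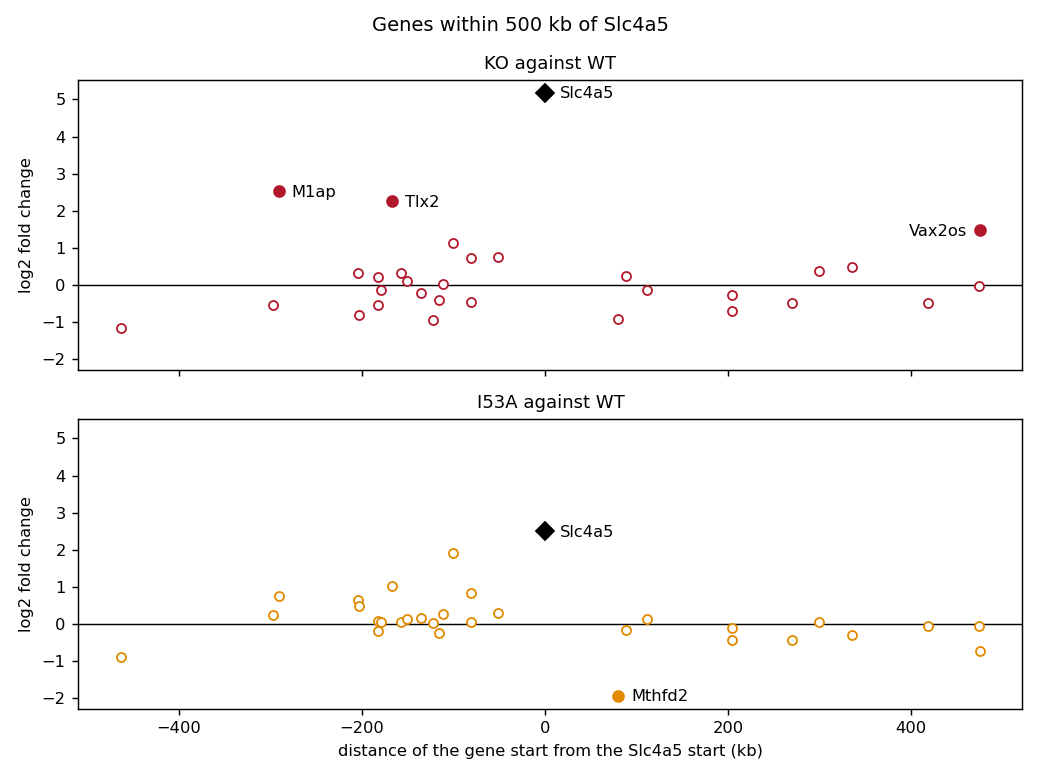
Log2 fold change (y axis) of the 30 genes measured within 500 kb of Slc4a5, by distance of their start from its start (x axis, kb), in KO and in I53A relative to WT, 1 brightest probe per gene and 3 arrays per group. Filled circles are called, and the diamond is Slc4a5 (5.17 in KO and 2.49 in I53A). The nearest called genes are Tlx2 at -167.1 kb in KO and Mthfd2 at 80.2 kb in I53A.

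Genes with the pattern most like Slc4a5 were sought by Pearson correlation of log2 levels over the 9 arrays. The search covered 554 other genes with an SD of at least 1 and a mean log2 level of at least 2.65. That is the lowest level called well above background on any array, so genes at background in a group were not excluded. The 5 most alike had r from 0.989 to 0.993. These values describe 9 arrays that share 3 genotypes, so they reflect mainly the 3 group means. They were Meioc, a regulator of meiotic entry, Tex19.1, a gene of germ cells and placenta, Pramel20 of the Prame-like family, and 2 genes known here only by identifier, ENSMUSG00000097581 and ENSMUSG00000090987. Tex19.1 read 7.91, 7.93 and 7.89 in WT, 9.22, 9.24 and 9.18 in I53A, and 10.87, 10.86 and 10.80 in KO. Meioc read 5.14, 5.09 and 5.69 in WT, 7.08, 7.25 and 7.47 in I53A, and 8.94, 8.52 and 8.70 in KO. In both genes, as in Slc4a5, the 3 groups were separate and I53A lay between the others. ENSMUSG00000090987 read 5.31 to 5.99 in WT, 8.23 to 8.82 in I53A and 10.80 to 11.38 in KO. ENSMUSG00000097581 read 2.84 to 3.02 in WT, above background on 0 arrays, 4.88 to 6.08 in I53A and 7.97 to 8.53 in KO.

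Markers of cells in which SLC4 genes are known were set beside the results. Of 7 choroid plexus genes, Ttr and Folr1 were above background on all arrays of every group, and the other 5 (Aqp1, Cldn2, Clic6, Kcnj13 and Kl) on no WT or KO array. The summed log2 level of all 7 was 9.33 to 9.41 in WT, 8.78 to 9.46 in KO and 9.10 to 9.24 in I53A. Summed primitive endoderm markers were 5.89 to 6.61 in WT, 7.40 to 7.97 in KO and 6.40 to 6.50 in I53A, with 3 of 6 above background on no KO array and 5 of 6 on no WT or I53A array. Summed trophoblast markers were 12.8 to 13.1 in WT, 12.05 to 12.40 in KO and 12.9 to 13.2 in I53A, with Elf5 above background on no array. Summed fibroblast markers, of which Postn and Lum were above background on no array, were 8.88 to 9.14, 9.04 to 9.18 and 9.05 to 9.46 in the same order. Summed erythroid markers were 7.41 to 8.48, 8.55 to 8.82 and 7.73 to 8.15, with Alas2 and Hbb-b1 above background on no array. Of 7 markers of 2-cell-like cells, 2 were measured, and their sum was 6.54 to 7.17, 6.60 to 7.31 and 6.13 to 6.38. The part of such cells in the level of Slc4a5 was not tested.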

How the data were processed

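Total RNA of 9 samples was measured on 1-colour Agilent SurePrint G3 8x60K arrays, and the authors read the scans with Agilent Feature Extraction 11.5.1.1. The deposited scanner files give spot intensity, processed by that software, with flags for background, saturation and outliers. A deposited table gives log2 values of 30170 probes that the authors had normalised, whose columns name the group but no replicate, and it served as an alternative.

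From the intensities, control spots (3671 of 62976) and outlier spots (0.4% to 0.548% per array) were removed, log2 was taken, repeat spots of a probe were averaged, and 55681 probes were quantile normalised. Limma 3.58.1 in R 4.3.3 fitted 1 mean per group over all 9 samples and 30170 probes, with Benjamini-Hochberg adjustment over all of them. A call needed an adjusted p under 0.05 and more than 2-fold change. The fit was tested on simulated data. Each gene was read at its brightest probe, and 26851 probes had 1 symbol, 97 several and 3222 none, through RefSeq accessions of GRCm38.p6. Where a group was below background on all arrays, readings under their array's lowest level called well above background were raised to that level. The folds of Slc4a4, Tlx2 and M1ap use this and are not lower bounds. The number of arrays limits the precision.

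Genes named were all members with every probe, called genes of the bicarbonate and pH list, the 3 nearest genes on each side and called genes around Slc4a5, the 5 genes most like it, and Rnf2. The members and lists were chosen with earlier results of these data known. The alternatives were 75th percentile scaling, normexp background with offset 50 (on gMedianSignal, as the mean signal was not in the files), the replicate number as a block, the slide as a block, slide 1 alone, the deposited log2 values, dim probes left out, only the 2 groups compared, a test against 1.2-fold, the mean of all probes, and leaving out each sample. Dim probes were those that no group had above background on all of its arrays. Slide and row as a block was added after seeing the data. Deviations from group means of same-numbered samples correlated over 0.1 in every pair for I53A and WT (0.389, 0.212 and 0.259), which also shared slide and row, and not in the KO comparisons (-0.321 to 0.0326). Arrays at the same slide and row correlated over 0.1 in every pair of all 3 comparisons. Values were 0.206 to 0.312 for KO and WT, and 0.115 to 0.433 for KO and I53A. The first KO array, however, correlated more with the second I53A array (0.142) than with the third (0.115), which shared its slide and row. Position was thus not singled out as the pairing of KO and I53A arrays. These pairings come from the data and not from the labels. Replicates correlated at 0.958 to 0.972, and none were copies. The result for 1 group of listed genes is not reported here.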

Additional observations from a re-analysis of the deposited data

Results flagged for a closer look

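Among the bicarbonate and pH genes and the named neighbours of Slc4a5, 3 passed the test of KO against I53A in the limma fit. The 5 genes most like Slc4a5 are left out, since they were chosen for its pattern over the same arrays. Slc4a5 itself was 2.68 log2 units higher in KO than in I53A, given here with no p because the KO level picked the gene. Car3 was lower in KO than in I53A (log2 difference -1.98, limma adjusted p = 0.0456), as was Car2 (-1.73, limma adjusted p = 0.033), and in both genes every KO array lay under every I53A array. Vax2os, near Slc4a5, was higher in KO by 2.20 (limma adjusted p = 0.0052), again without overlap. On slide 1 alone it just missed the threshold (2.44, limma adjusted p = 0.0531).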

How the results depend on the processing

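Under 20 alternatives, Slc4a5 kept its call in I53A in all but slide 1 alone (log2 difference 2.48, adjusted p = 0.142), with values from 1.99 to 2.74. All of these settings draw on WT arrays that also picked the gene. The count of SLC4 members called higher in I53A was 1, and became 2 with dim probes left out and with the mean of all probes, where Slc4a11 joined (adjusted p = 0.0209 and 0.0496 against 0.0856), and 0 on slide 1 alone. The replicate block changed no call of a member (outside the family Car2, Car3, Mthfd2 and Vax2os lost theirs), nor did the block of slide and row, which was chosen after seeing the data. The cause of these shifts was not tested.

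Members with small differences changed sign without being called. With the normexp background Slc4a2 gave -0.090 in KO and -0.26 in I53A, Slc4a10 0.10 in KO, and Slc4a7 -0.033 in KO against I53A. On slide 1 alone Slc4a2 gave -0.070 in I53A. The mean of all probes gave 0.016 for Slc4a3 in KO and -0.091 for Slc4a7 in KO against I53A. Leaving out 1 sample at a time gave -0.12 to 0.31 for Slc4a2 in I53A, -0.074 to 0.35 for Slc4a2 and -0.039 to 0.20 for Slc4a7 in KO against I53A, and -0.999 to 0.18 against WT and -0.77 to 0.41 against I53A for Slc4a8 in KO, positive only without the third KO sample.

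Of the bicarbonate and pH genes, 3 were called higher in KO, but 0 with normexp and 1 on slide 1 alone, and 1 to 3 when a sample was left out, with 1 remaining without the third WT sample. Slc9a3r1 lost its call without the first or second KO sample or the second or the third WT sample (1.127 to 1.259), and Bsg without the first or the third WT sample (1.40 and 1.36). Called lower in KO were 0 against WT, 2 with dim probes left out, 1 with the slide and row block (Car2), and 0 to 1 when a sample was left out (1 without the second KO sample). The 2 calls in KO against I53A (Car2 and Car3) became 1 with 75th percentile scaling or the slide as a block and 0 with normexp, the replicate block, slide 1 alone, only the 2 groups compared or the 1.2-fold test, and 0 to 1 whichever of the 9 samples was left out.

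Around Slc4a5, the 1 gene called lower in I53A (Mthfd2) became 0 with 75th percentile scaling, normexp, the replicate, slide or position block, slide 1 alone, only 2 groups or the 1.2-fold test, and 0 to 1 when a sample was left out. Higher in I53A, 0 became 1 with dim probes left out and with normexp. In KO, 3 called higher became 0 with normexp, where Tlx2, M1ap and Vax2os fell under 2-fold, and 0 called lower became 1 with dim probes left out. In KO against I53A, 1 became 2 with dim probes left out or without the third I53A sample and 0 on slide 1 alone, with 1 to 2 over the samples left out. Among the nearest genes, uncalled differences changed sign for Wdr54 (0.69 on slide 1 alone, -0.57 to 0.54 leaving out samples, KO against I53A), 1700003E16Rik (0.091 and 0.039 with normexp in KO against WT and I53A, and leaving out samples -0.54 to 0.42 in I53A and -0.88 to 0.085 in KO against I53A), Mob1a (0.24 with the mean of all probes and -0.31 to 0.014 leaving out samples in I53A) and Bola3 (0.16 and 0.018 with 75th percentile scaling in KO against WT and I53A, -0.089 with normexp and -0.19 with the mean of all probes in I53A, and -0.22 to 0.0084 leaving out samples in KO). Probes near background, such as those of Slc4a4, Slc4a8 and Slc4a10, do not give firm folds.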
